A study of Mus musculus with 5 samples.

Results

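Splicing factor and spliceosome genes were followed in mouse common myeloid progenitors, blood progenitors of the granulocyte, monocyte, red cell and platelet lineages, after deletion of Mll1. The members are the rows of the expression files whose gene name begins with Srsf and a digit, Hnrnp, Sf3a or Sf3b, Snrp, U2af, or Prpf and a digit. Of the 31626 rows, 54 carry such a name and 52 of these passed the filter on low values, at least 1 FPKM in at least 2 libraries. FPKM are fragment counts scaled to transcript length and library size, so levels of different genes can be set side by side per length. The other 2 rows, named Snrpn and Snrp1c-ps2, were listed at 0 in every library. No row begins with Srsf, because the files carry the older Sfrs names, and the SR protein genes are described after the members under the names in the files.

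All 5 libraries came from C57Bl/6 progenitors with floxed Mll1, which a retrovirus (MSCV-MN1-IRES-GFP) had transformed by expressing MN1, a leukaemia-associated cofactor of transcription. They grew in methylcellulose medium M3234 with serum, IL3, IL6 and SCF and were sorted at day 7. In 2 libraries the cells had been transduced with Cre recombinase and are labelled MLL1 -/-, here the Mll1 knockout. In 3 libraries the cells had received a control and kept MLL1 flox/flox alleles. Mll1 (current symbol Kmt2a) encodes a histone methyltransferase that maintains transcription of Hox and other progenitor genes. Cre-treated cells with unfloxed Mll1 were not analysed here, so effects of Cre itself and of Mll1 loss cannot be told apart. Separate mice or cultures are not stated for the replicates, so each p-value measures only how these samples vary, and that variation may be technical.

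Splicing removes introns from the primary transcript. The spliceosome is built on each intron from the small nuclear ribonucleoproteins (snRNPs) U1, U2, U4, U5 and U6. U1 marks the 5′ splice site, U2AF and SF3 help U2 to settle at the 3′ end of the intron, and the tri-snRNP of U4, U6 and U5 then joins and is rearranged into the catalytic machine. SR proteins and hnRNP proteins bind the transcript and tilt the choice of splice sites, SR proteins often towards and many hnRNP proteins often away from the use of an exon. Almost every cell type needs the core machinery, and mutations of SF3B1, U2AF1 and SRSF2 are frequent in human myeloid neoplasms.

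Several of these genes have processed copies elsewhere in the genome, and the sequences below show how little separates a gene from its copy in the stretches given. They are coding sequences of GENCODE M21 (build GRCm38), read by gene ID, 5′ to 3′ on the coding strand, and capitals mark a base that differs between gene and copy. Snrpg (chromosome 6, 86371304 to 86379328, plus strand), which encodes the Sm protein G of the snRNP core ring, is shown whole without its stop codon. Its 228 bases are the same, with 0 differences, in the processed pseudogene Gm8186 on chromosome 17.
Snrpg: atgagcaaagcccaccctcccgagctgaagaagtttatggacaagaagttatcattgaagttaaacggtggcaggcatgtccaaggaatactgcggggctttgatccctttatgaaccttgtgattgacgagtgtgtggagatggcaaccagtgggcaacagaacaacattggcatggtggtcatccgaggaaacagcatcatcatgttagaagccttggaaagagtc
U2af1 (chromosome 17, 31647081 to 31658892, minus strand) encodes the U2AF subunit that reads the AG at the intron's 3′ end. Its first 120 bases differ at 1 base, the last shown, from the processed pseudogene Gm10232 on the same chromosome. Over 718 aligned bases the identity of the 2 is lower, at 96.7%.
U2af1: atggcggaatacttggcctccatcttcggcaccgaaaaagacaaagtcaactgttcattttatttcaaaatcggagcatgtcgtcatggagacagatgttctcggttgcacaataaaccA
Gm10232: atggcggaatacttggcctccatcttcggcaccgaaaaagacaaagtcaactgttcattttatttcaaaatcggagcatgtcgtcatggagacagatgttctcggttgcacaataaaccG
Hnrnpa1 (chromosome 15, 103240432 to 103246692, plus strand) encodes an abundant hnRNP protein that represses exons. Its first 120 bases occur with 0 differences in the processed pseudogene Gm10052 on chromosome 9.
Hnrnpa1: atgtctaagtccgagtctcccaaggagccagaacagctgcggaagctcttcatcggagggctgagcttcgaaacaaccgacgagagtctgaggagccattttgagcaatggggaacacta

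Copies were commoner among these genes than among genes at large. A gene elsewhere with at least 95% identity over at least 100 aligned bases was found for 17 of the 52 members tested (32.7%) and for 1158 of 10314 tested genes with a coding sequence (11.2%). Hnrnpa3 had 27 such genes, Hnrnpa1 had 12 and Hnrnpf had 8. Of all 50-base windows of the coding sequence, 100% of those of Snrpg also stood in a gene elsewhere, 97.7% for Hnrnpa3, 96.1% for Hnrnpf, 81.3% for Snrpf, 81.0% for U2af1, 80.8% for Hnrnpa1 and 75.1% for Hnrnpk. The 7 members with at least 75% of windows elsewhere had a median level of 25.4 FPKM, from 1.84 for Snrpg to 214 for Hnrnpk. The 24 members with no window elsewhere had a median of 107 FPKM, from 5.36 to 469.9.

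**Figure D1:**
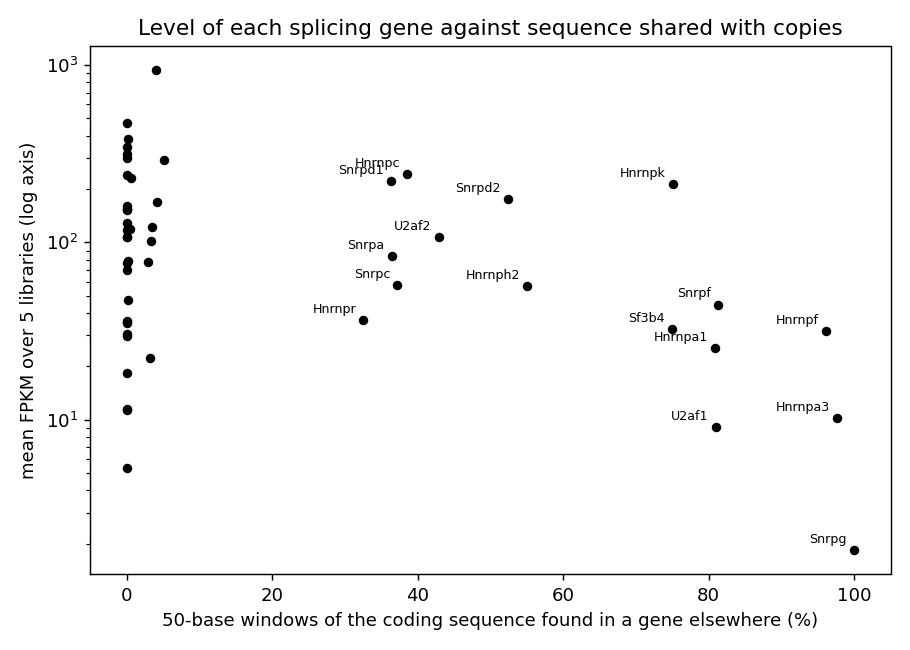
Mean FPKM over the 5 libraries (log axis) of each of the 52 splicing genes against the percentage of 50-base windows of its coding sequence that also occur in a gene elsewhere; genes at 30% or more are named. Snrpg stands at the lower right, at 100% and 1.84 FPKM, and Hnrnpk is the highest of the genes at 75% or more.

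Genes whose proteins work together stood far apart in mRNA level in these files. Protein was not measured, so these levels do not give the numbers of the proteins. U2af2, the subunit that binds the polypyrimidine tract and pairs with the product of U2af1, had a mean of 107 FPKM over the 5 libraries, and U2af1 had 9.09 FPKM. U2af2 has a copy too, with 42.9% of its 50-base windows elsewhere. Within the Sm ring, which holds its proteins in equal numbers, Snrpb averaged 385 FPKM and Snrpd3 161 FPKM, while Snrpf averaged 44.6 FPKM and Snrpg 1.84 FPKM. Snrpd1 and Snrpd2 of the same ring averaged 221 and 175 FPKM, above Snrpd3, with 36.4% and 52.5% of their windows elsewhere. How reads that match several places were counted is not given in the sources used here, so levels of genes with copies are uncertain, and its part in these gaps was not tested. The 17 members with a copy had a median log2 change between the groups of 0.03, and the 35 without had 0.11.

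The splicing genes as a class were abundant. Their median level was 92.7 FPKM, against 14.3 FPKM for all 11780 genes tested, and 26 of the 52 averaged over 100 FPKM while 3 averaged under 10 FPKM. Summed over the 54 rows, they held 7209.5 and 7491 FPKM in the knockout libraries, against 6201, 6942 and 7376 FPKM in control replicates 1, 2 and 3.

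**Figure D2:**
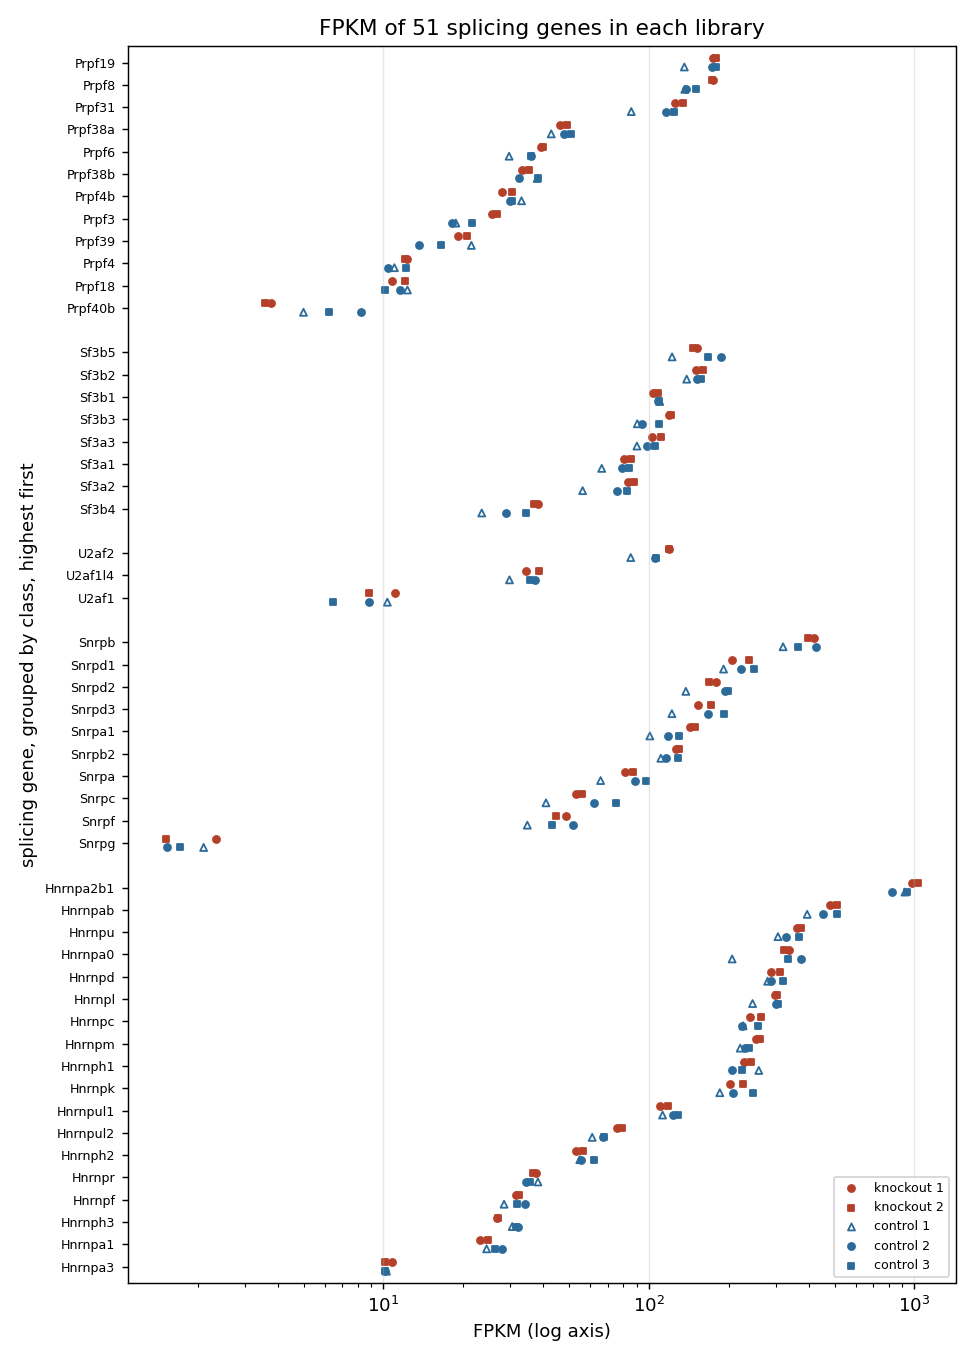
FPKM (log axis) of 51 of the 52 splicing genes in each library, grouped by class and sorted by mean level, with knockout libraries in red above controls in blue and control replicate 1 as open triangles. Hnrnpa2b1 is highest in all 5 libraries and Snrpg lowest, and control replicate 1 lies left of the other libraries for 32 genes.

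No member passed the test between knockout and control, and most changes were small. In limma on log2(FPKM + 1), with Benjamini-Hochberg adjustment over all 11780 genes tested, 0 of the 52 passed an adjusted p under 0.05, while 9.79% of all genes tested did (450 genes or 3.82% higher and 703 genes or 5.97% lower in the knockout). At an unadjusted p under 0.05 there were 7 of 52 members (13.5%), 5 higher and 2 lower in the knockout, against 29.8% of all genes tested. The median size of the log2 change, either direction, was 0.11 for the members and 0.22 for all genes tested. With only genes at a mean of at least 5 FPKM kept, it was 0.11 and 0.20. With 5 in place of 1 added to the FPKM, it was 0.10 and 0.15. The members were more abundant than genes at large, and neither these sizes nor the interval shares that follow were matched for level. The 95% interval of the log2 change lay inside 1 in either direction for 51 of the 52 members (98.1%) and for 81.2% of all genes tested. The exception was Prpf40b. It lay inside 0.58, a 1.5-fold change, for 42 members. Ratios of the mean FPKM in the knockout to that in the control ran from 0.569 for Prpf40b to 1.35 for Prpf3, and 35 of the 52 were within 0.9 to 1.1. In bulk samples fewer cells of a type and less RNA per cell cannot be told apart.

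The changes that were seen leaned upward. The log2 change, knockout minus control, was above 0 for 40 of the 52 members (76.9%), against 46.5% of all genes tested, and its median was 0.09 for the members and -0.03 for all genes tested. Both knockout libraries lay above all 3 controls for 12 members (23.1%; 22.9% of all genes tested) and below them for 2 (3.85%; 29.4% of all genes tested). This lean moved with control replicate 1, which was below the other 4 libraries for 32 of the 52 members (61.5%) and for 32.4% of all genes tested. Without it, 29 of the 52 changes were above 0 (55.8%; 43.0% of all genes tested). The median was then 0.04 for the members and -0.05 for all genes tested. The knockouts then lay above both controls for 17 members (32.7%; 28.9% of all genes) and below both for 8 (15.4%; 42.7% of all genes), and 4 members passed the adjusted threshold, against 29.8% of all genes.

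**Figure D3:**
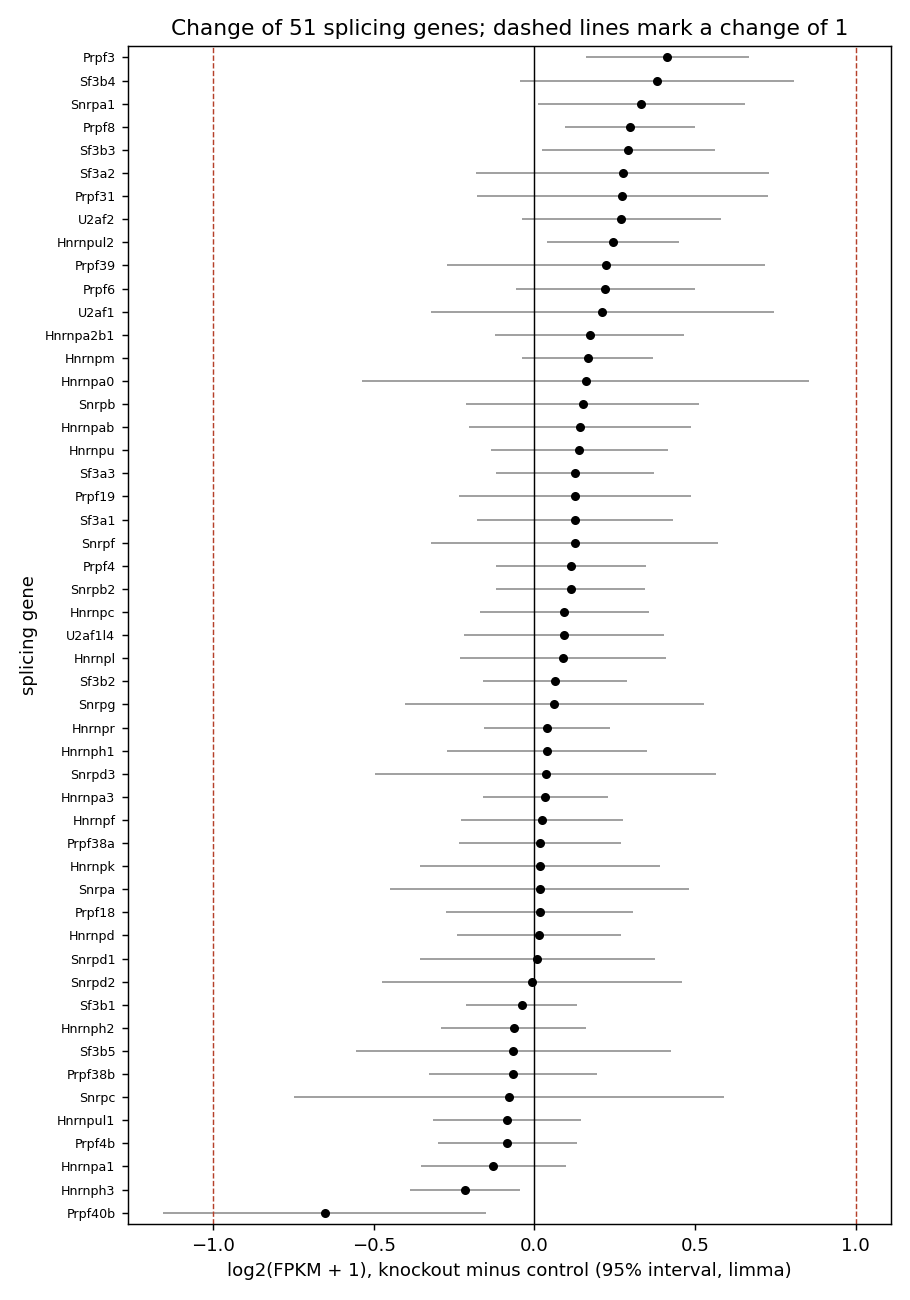
Log2 change of 51 of the 52 splicing genes, the difference in log2(FPKM + 1) between knockout and control, as points with limma's 95% interval as bars; dashed lines mark a change of 1. Prpf3 is highest at 0.41 and Prpf40b lowest at -0.65, and Prpf40b alone has an interval that crosses a dashed line.

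Among the Prpf genes, which encode proteins of the U4, U6 and U5 snRNPs and factors that join or activate them, 9 of the 13 changes were above 0 and the median was 0.11. Prpf3 encodes a protein of the U4/U6 snRNP. It had 25.6 and 26.8 FPKM in the knockout libraries, against 18.7, 18.2 and 21.6 FPKM in control replicates 1, 2 and 3. The groups did not overlap, and the log2 change was 0.41 (SE 0.0992, limma adjusted p = 0.0649). Prpf8 encodes the large U5 protein at the heart of the catalytic centre. It had 175 and 173 FPKM in the knockout libraries, against 136, 138 and 149.9 FPKM in the controls. Both knockouts were above every control, with a log2 change of 0.30 (SE 0.0791, limma adjusted p = 0.0786). The call depended on the processing. The limma adjusted p of Prpf8 was 0.0462 after median-ratio scaling (10.3% of all genes called) and 0.0389 without control replicate 1 (29.8%). It was 0.0246 after a correction for transcript length and GC content (14.6% of all genes called). Prpf3 passed after that correction too, at a limma adjusted p of 0.0359.

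Prpf31, whose product holds the U4/U6 snRNP to U5, had 126 and 134 FPKM in the knockout libraries, against 85.8, 116 and 125 FPKM in the controls. The groups did not overlap, but control replicate 3 lay just under the lower knockout, and the limma adjusted p was 0.358. The log2 change of Prpf31 was 0.27, and 0.11 without control replicate 1. Prpf19, a ubiquitin ligase that activates the spliceosome, had 174 and 179 FPKM in the knockout libraries, against 136, 173 and 179 FPKM in the controls. It was low in control replicate 1 only and otherwise level (log2 change 0.13, limma adjusted p = 0.597). Prpf6, a bridge of the tri-snRNP, was the remaining member of this class with both knockouts above the controls, at a mean of 39.5 ± 0.472 FPKM in knockouts (SD, n = 2) and 33.9 ± 3.59 FPKM in controls (SD, n = 3). The groups overlapped in the other members with mean levels of 11.4 FPKM (Prpf18, a factor of the second catalytic step) to 47.4 FPKM (Prpf38a, a factor of spliceosome activation), and their log2 changes ran from -0.08 for the kinase gene Prpf4b to 0.22 for the U1-associated Prpf39.

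Prpf40b stood apart as the lowest Prpf gene and the member with the lowest log2 change. It encodes a U1-associated protein. It had 3.79 and 3.59 FPKM in the knockout libraries, against 4.998, 8.20 and 6.25 FPKM in the controls. The groups did not overlap, the log2 change was -0.65 (95% interval -1.16 to -0.15) and the limma adjusted p was 0.0998. Without control replicate 1 the log2 change was -0.80 and the limma adjusted p was 0.0261 (29.8% of all genes called). In the GENCODE M21 annotation Prpf40b overlaps Fam186b on the opposite strand, and Prpf31 and Prpf6 overlap other genes in the same way. Such an overlap exists for 22 of the 52 members. The library kit was stranded, per the labels, but whether strand was used in the counting is not given in the sources used here.

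The SF3A and SF3B genes encode the subunits of U2 that grip the intron's branch point. Of the 8, 3 had both knockouts above the controls (22.9% of all genes tested), 0 had both below (29.4%), and the median log2 change was 0.13. Sf3b1, the largest subunit, had 104 and 108 FPKM in the knockout libraries, against 109.8, 108 and 109 FPKM in the controls. The 5 libraries were close together and the groups overlapped, and the log2 change was -0.04 (95% interval -0.21 to 0.13). Sf3b2 had 151 and 160.3 FPKM in the knockout libraries, against 139, 151 and 156 FPKM in the controls. Sf3b5, a small subunit, had 152 and 146 FPKM in the knockout libraries, against 122, 186 and 167 FPKM in the controls. Both overlapped, and the controls of Sf3b5 spread more widely than its knockouts.

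Sf3b4, which binds the transcript upstream of the branch point, had 38.1 and 37.0 FPKM in the knockout libraries, against 23.5, 28.9 and 34.4 FPKM in the controls (log2 change 0.38, limma adjusted p = 0.203). A single pseudogene, Gm7935 on chromosome 15, covers the whole coding sequence of Sf3b4 at 99.3% identity. Sf3b3, a scaffold subunit, had 119 and 121 FPKM in the knockout libraries, against 90.4, 94.4 and 109 FPKM in the controls (log2 change 0.29, limma adjusted p = 0.142). Sf3a2 had 83.3 and 88.2 FPKM in the knockout libraries, against 56.3, 75.8 and 82.7 FPKM in the controls (log2 change 0.27, limma adjusted p = 0.358). In these 3 genes control replicate 1 was the lowest library and control replicate 3 was the nearest control to the knockouts. Without control replicate 1 the log2 change was 0.24 for Sf3b4 and 0.11 for Sf3a2. Sf3a1 and Sf3a3, which encode the other SF3A subunits, averaged 79.0 and 101 FPKM over the 5 libraries, and each had a log2 change of 0.13 with overlapping groups. A further subunit gene, Sf3b6, is outside the name rule because the files call it 0610009D07Rik. It had 99.4 and 106 FPKM in the knockout libraries, against 113, 116 and 121 FPKM in the controls. Both knockouts were below every control, with a log2 change of -0.18 (limma adjusted p = 0.188).

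The 3 U2AF genes had log2 changes of 0.09 to 0.27. U2af2 had 119.5 and 118.8 FPKM in the knockout libraries, against 85.4, 105.8 and 106.1 FPKM in the controls. The knockouts were nearly equal and above every control, with a log2 change of 0.27 (95% interval -0.04 to 0.58, limma adjusted p = 0.211), and without control replicate 1 the log2 change was 0.17. U2af1 had 11.01 and 8.85 FPKM in the knockout libraries, against 10.3, 8.82 and 6.45 FPKM in the controls. The groups overlapped (log2 change 0.21, limma adjusted p = 0.545). The log2 change was 0.07 when knockout replicate 1 was left out, 0.35 when knockout replicate 2 was, 0.35 when control replicate 1 was and 0.04 when control replicate 3 was. U2af1l4, a paralog of U2af1, had 34.4 and 38.4 FPKM in the knockout libraries, against 29.8, 37.1 and 35.7 FPKM in the controls, and it overlaps Psenen on the opposite strand.

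Of the 12 Snrp rows, 10 were tested, and 9 of these overlapped between the groups. Over all genes tested, 22.9% were higher and 29.4% lower in the knockout without overlap. Snrpb, which encodes the Sm proteins B and B′, had 419 and 397 FPKM in the knockout libraries, against 320.1, 425 and 365 FPKM in the controls. Its knockouts lay inside the range of the controls, with a log2 change of 0.15 (limma adjusted p = 0.528). Snrpd1 had 206 and 238 FPKM in the knockout libraries, against 191, 223 and 249 FPKM in the controls. Snrpd2 had 179 and 168 FPKM in the knockout libraries, against 138, 193 and 199 FPKM in the controls. Both encode Sm core proteins, and their log2 changes were 0.01 and -0.01. Snrpa1, which encodes a U2 protein, was the exception to the overlap, with 142 and 149.6 FPKM in the knockout libraries, against 101, 118 and 130.1 FPKM in the controls. Its log2 change was 0.33 (SE 0.126, limma adjusted p = 0.158). Snrpg had 2.33 and 1.51 FPKM in the knockout libraries, against 2.10, 1.53 and 1.71 FPKM in the controls, with overlapping groups. Among the rest, Snrpb2 encodes a U2 protein, Snrpa and Snrpc encode U1 proteins, and Snrpd3 and Snrpf encode Sm proteins. Their log2 changes ran from -0.08 for Snrpc (95% interval -0.75 to 0.59) to 0.13 for Snrpf (95% interval -0.32 to 0.57), and control replicate 1 was the lowest library for these 5 genes. The row named Snrpn was listed at 0 in all 5 libraries. GENCODE M21 gives its gene ID the name Gm38393, so this 0 need not be the level of Snrpn, an imprinted gene for an Sm protein best known from neurons.

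The gap between control replicate 1 and the other controls had its largest median in the Snrp class among the 5 classes of members. Against the mean of control replicates 2 and 3 on the log2(FPKM + 1) scale, its median difference was -0.36 over the 10 Snrp genes tested, -0.28 for U2AF, -0.23 for SF3A and SF3B, -0.13 for hnRNP and -0.08 for Prpf genes. Over all 52 members it was -0.17, and over all genes tested -0.06. For the members, knockout replicates 1 and 2 stood at medians of -0.003 and 0.04 on the same measure. The median coefficient of variation of the members was 4.04% in the knockouts (n = 2) and 10.4% in the controls (n = 3). Over all genes tested it was 4.05% and 12.3%. The groups are not like for like here, with 2 libraries against 3 that include control replicate 1.

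**Figure D4:**
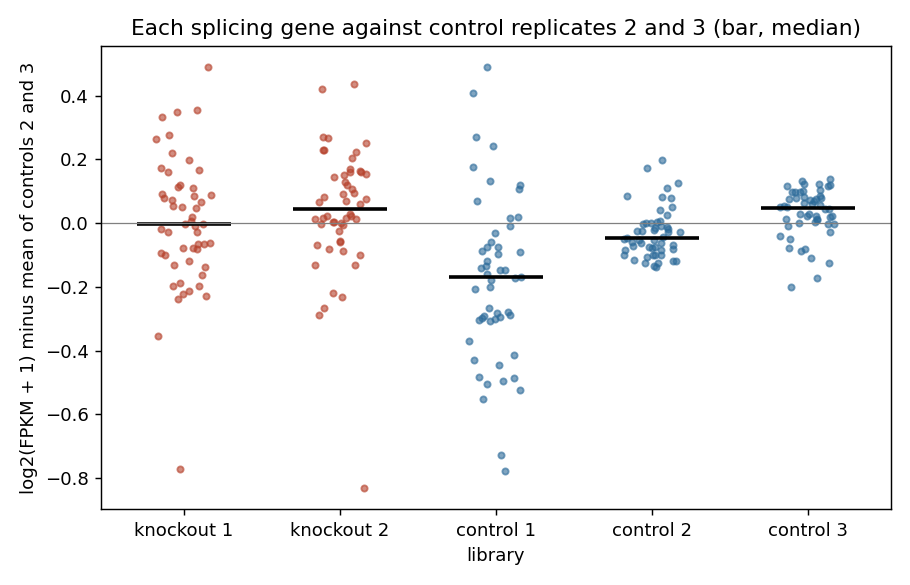
Log2(FPKM + 1) of each of the 52 splicing genes in each library, minus the mean of control replicates 2 and 3; points are genes and bars their medians. The medians are near 0 in both knockout libraries and -0.17 in control replicate 1, where 32 genes have their lowest value.

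The hnRNP genes were the most abundant class, with a median level of 223 FPKM over 18 genes. Hnrnpa2b1, which encodes an RNA-binding protein of splicing and RNA transport, led at 982 and 1030.4 FPKM in the knockout libraries, against 921, 819.6 and 941 FPKM in the controls. Both knockouts were above the controls, with a log2 change of 0.17 (limma adjusted p = 0.371). Hnrnpab had 482 and 511 FPKM in the knockout libraries, against 394, 453 and 509 FPKM in the controls. Hnrnpu, which encodes a protein of nuclear RNA and chromatin organisation, had 359.8 and 373 FPKM in the knockout libraries, against 306, 328 and 367 FPKM in the controls. The groups overlapped in Hnrnpab and Hnrnpu, with control replicate 1 lowest.

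Hnrnpk, a binder of C-rich RNA, had 202 and 227 FPKM in the knockout libraries, against 185, 208 and 247 FPKM in the controls, and its log2 change was 0.02. Hnrnpa1 had 23.2 and 24.7 FPKM in the knockout libraries, against 24.5, 28.0 and 26.4 FPKM in the controls (log2 change -0.13, limma adjusted p = 0.385). The groups overlapped in both. Hnrnph3, a relative of the G-run binding hnRNP H proteins, had 26.9 and 27.0 FPKM in the knockout libraries, against 30.5, 32.1 and 31.7 FPKM in the controls. Its groups did not overlap and its replicates were tight, with a log2 change of -0.22 (SE 0.0671, limma adjusted p = 0.106). Without control replicate 1 the log2 change was -0.24 and the limma adjusted p 0.0317 (29.8% of all genes called). Hnrnpul2, named here because an alternative called it and chosen after its values were seen, averaged 77.5 ± 2.34 FPKM in knockouts (SD, n = 2) and 65.3 ± 3.64 FPKM in controls (SD, n = 3). Its limma adjusted p was 0.119, 0.0476 without control replicate 1 (29.8% of all genes called) and 0.0441 after the length and GC correction (14.6%).

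The remaining hnRNP genes ran from 10.3 FPKM for Hnrnpa3 to 315 FPKM for Hnrnpa0 on average. Hnrnpa0 had the widest controls among them, at 206, 374 and 334 FPKM in replicates 1, 2 and 3, while the knockouts had 338 and 322 FPKM. The knockouts lay near control replicate 3, and control replicate 1 was far below the other 4 libraries.

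SR protein genes carry older names in the files and were matched by gene ID to their current symbols. There were 11 rows, 10 of them tested, and 0 passed the adjusted threshold, with 0 higher and 2 lower in the knockout at an unadjusted p under 0.05 (29.8% of all genes tested, either direction). Their median log2 change was -0.10, 7 of the 10 changes were below 0, and both knockouts were below the controls for 5 (29.4% of all genes tested) and above for 1 (22.9% of all genes tested). Summed, the SR rows held 1570.2 and 1661 FPKM in the knockout libraries, against 1654, 1723 and 1706 FPKM in the controls. Whether SR genes and members differ in direction was not tested.

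Sfrs1 (Srsf1), the prototype exon activator, had 184 and 197 FPKM in the knockout libraries, against 182, 184 and 194 FPKM in the controls. Sfrs2 (Srsf2), which recognises exonic enhancers, had 364 and 386 FPKM in the knockout libraries, against 332, 359 and 364 FPKM in the controls, and Sfrs2 was the highest of the SR genes. Sfrs3 (Srsf3), the smallest SR protein's gene, had 126 and 132 FPKM in the knockout libraries, against 130.2, 131 and 133 FPKM in the controls. None of the 3 separated the groups, and their log2 changes were 0.03, 0.09 and -0.03.

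Fusip1 (Srsf10), which encodes a splicing repressor active when dephosphorylated, had 21.3 and 21.7 FPKM in the knockout libraries, against 28.1, 25.6 and 24.9 FPKM in the controls (log2 change -0.27, limma adjusted p = 0.101). Sfrs6 (Srsf6) had 173 and 180.5 FPKM in the knockout libraries, against 209.9, 208 and 194 FPKM in the controls (log2 change -0.21, limma adjusted p = 0.162). Sfrs5 (Srsf5) had 199.8 and 223 FPKM in the knockout libraries, against 227, 275 and 284 FPKM in the controls (log2 change -0.30, limma adjusted p = 0.199). All 3 had both knockouts below every control, and they were chosen for naming after their values were seen. Of the SR genes named here, Sfrs3, Fusip1 and Sfrs5 share 89.4%, 75.8% and 55.2% of their 50-base windows with a gene elsewhere. Hnrpll (Hnrnpll), a regulator of Cd45 splicing in lymphocytes, had 57.4 and 61.8 FPKM in the knockout libraries, against 46.6, 51.5 and 54.4 FPKM in the controls (log2 change 0.23, limma adjusted p = 0.186).

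Further genes of the pathway were counted from lists outside the name rule, against the same 9.79% of all genes tested. Of 80 other core spliceosome genes, 0 rose and 1 fell at an adjusted p under 0.05, and their median log2 change was 0.07. The gene that fell was Snrnp48, a protein of the minor spliceosome, with 21.6 and 22.6 FPKM in the knockout libraries, against 28.0, 30.5 and 28.3 FPKM in the controls (log2 change -0.37, limma adjusted p = 0.0473). Of 42 splicing regulators, 0 rose and 4 fell. Of 13 kinases and import factors of SR proteins, 0 rose and 1 fell. None of 22 snRNP assembly genes and 16 genes of the exon junction complex and nonsense-mediated decay passed with limma, with 4 and 3 at an unadjusted p under 0.05, against 29.8% of all genes tested.

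Cirbp, the cold-inducible RNA-binding protein, had 41.4 and 39.3 FPKM in the knockout libraries, against 67.4, 71.6 and 64.5 FPKM in the controls (log2 change -0.74, limma adjusted p = 0.0149). Tia1, which promotes use of weak 5′ splice sites, had 18.3 and 18.3 FPKM in the knockout libraries, against 28.1, 27.5 and 26.1 FPKM in the controls (log2 change -0.55, limma adjusted p = 0.0198). In both genes the libraries of each group were close together and the groups far apart. Srrm2, a large scaffold of nuclear speckles, fell to 85.9 ± 3.55 FPKM in knockouts (SD, n = 2), against 118 ± 7.88 FPKM in controls (SD, n = 3; limma adjusted p = 0.0437). Mbnl2, a muscleblind splicing regulator, fell to 13.2 ± 0.285 FPKM in knockouts (SD, n = 2), against 17.0 ± 0.353 FPKM in controls (SD, n = 3; limma adjusted p = 0.0479). Clk2, a kinase of SR proteins, fell to 18.2 ± 0.320 FPKM in knockouts (SD, n = 2), against 23.8 ± 0.668 FPKM in controls (SD, n = 3; limma adjusted p = 0.0414).

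Lineage genes in the same libraries had larger median log2 changes than the splicing genes. Over all genes tested, 3.82% were called higher and 5.97% lower in the knockout. Of 13 stem and progenitor markers tested, 7 fell and 1 rose, with a median log2 change of -1.08. Of 20 neutrophil markers 5 rose and 0 fell, with a median of 1.26. Of 11 primary granule markers 5 rose and 1 fell, and of 13 erythroid markers 5 rose and 0 fell. Of 10 monocyte and macrophage markers 1 rose and 2 fell. Cd34, a progenitor surface marker, had 216 and 212 FPKM in the knockout libraries, against 685, 600.3 and 587 FPKM in the controls, and Kit was detected at 57.1 FPKM or more in all 5 libraries. Of 16 lymphoid markers, Thy1 and Rag2 passed the filter and fell, and Cd3g, Cd8a, Ncr1 and Pax5 were listed at 0 in every library. Of the markers called, Rhag and Car1 (erythroid) reached 1 FPKM in the knockout libraries only. Mycn (progenitor), Irf8 (monocyte) and Rag2 reached it in the controls only. The filter kept these low genes through the group where they are high, so the counts rest in part on it.

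Control replicate 1 also stood apart in some of these markers. The 24 neutrophil markers summed to 22749.9 and 21021 FPKM in the knockout libraries, against 6605, 957 and 1201 FPKM in control replicates 1, 2 and 3. The highest of them averaged 5348 FPKM over the 5 libraries, so this sum rests heavily on it. The 15 monocyte and macrophage markers summed to 839 and 732 FPKM in the knockout libraries, against 667, 219 and 209 FPKM in the controls. The 17 stem and progenitor markers summed to 403 and 383 FPKM in the knockout libraries, against 1132, 965 and 922 FPKM in the controls. In 2 further lists control replicate 1 was again above the other controls. The 12 primary granule markers summed to 6711 and 7149 FPKM in the knockout libraries, against 3868, 3156 and 3279 FPKM in the controls. There control replicate 1 was nearer the other controls than the knockouts. For the 16 erythroid markers the sums were 198 and 217 FPKM, against 190, 164 and 163 FPKM. Here control replicate 1 was nearer knockout replicate 1 than the other controls. These marker levels were measured in the library where 32 of the 52 splicing genes had their lowest value, and their part in those low values was not tested.

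**Figure D5:**
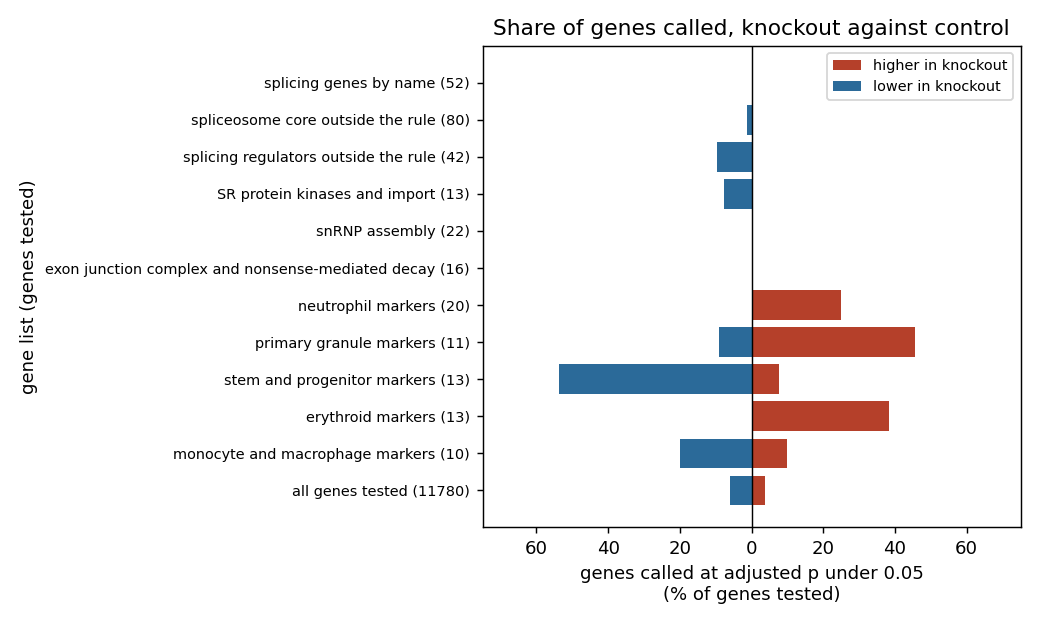
Percentage of tested genes called at an adjusted p under 0.05 in the splicing genes, 10 of the 11 gene lists and all genes tested, with genes higher in the knockout to the right and genes lower in the knockout to the left; numbers tested stand in parentheses. The splicing genes chosen by name have no bar (0 of 52), and stem and progenitor markers have the longest bar to the left among those drawn (7 of 13). The lymphoid list, of which 2 genes were tested and both fell, is not drawn.

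Mll1 itself was below every control in both knockout libraries. Mll1 had 6.22 and 5.32 FPKM in the knockout libraries, against 9.67, 7.28 and 7.19 FPKM in the controls. The log2 change was -0.41 (limma adjusted p = 0.158). A two-sided exact permutation test over 10 assignments of the libraries to groups gave p = 0.1, the smallest it allows, so it cannot pass a threshold of 0.05. Which exons were floxed is not stated, so this whole-gene level may miss the deleted part. Without counts in the files, absolute depth is unknown. The worth of 1 read relative to control replicate 1, taken from genes under 2 FPKM, was 0.98 and 0.982 in the knockout libraries. It was 0.994 and 1.02 in control replicates 2 and 3. Only ratios close to 1 were searched, so a larger difference in depth could not show, and equal depth cannot be concluded from these values.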

How the data were processed

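RNA was prepared with a Qiagen kit and a stranded Illumina mRNA kit, per the labels' protocols. Per the submitters' processing notes, the tools were CASAVA 1.8.2, GSNAP, SAMtools and Cuffdiff, with the build mm9. The sources used here do not give the annotation, the Cuffdiff version, the strand setting or the counting of reads with several matches. The deposited values are FPKM, 1 per Ensembl gene and library, scaled by the authors to gene length and library size. The value 999999999 stood in 16 genes, none of them a member, and these were left out as failed estimates.

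A gene was tested where at least 2 libraries reached 1 FPKM (11780 genes). The tool was limma 3.58.1 (R 4.3.3), applied to log2(FPKM + 1). The model held the group alone, with an intensity trend and Benjamini-Hochberg adjustment over all genes tested. Fold changes on this scale understate the change of low genes. On simulated data with 200 of 11780 genes changed, 10 runs recovered 69.9% of log2 changes of 1 and 95.3% of 2, with 4.19% false among the calls. The simulated noise was independent and had the same spread in every library. In the data the median coefficient of variation over all genes tested was 12.3% in the 3 controls and 4.05% in the 2 knockouts. The simulated shares therefore need not hold for the data. GENCODE M21 (GRCm38), matched by gene ID for 26622 rows, gave current symbols, coding sequences, chromosomes, copies (BLAST 2.17.0) and overlaps only.

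The members and the 11 gene lists were chosen with earlier results of these data known. Given in full are members called, the 6 largest rises and falls whose knockouts lie outside the range of the controls, the 3 highest of each class, a set of well-known members, and called genes of the 5 pathway lists. Lineage markers are given as counts, sums and examples. The alternatives were 2 pseudocounts, 2 filters, 2 scalings, no trend, a replicate block, shared symbols summed, each library left out and a threshold of 0.1. A length and GC correction and members without copies were added after the data had been seen. The values of 1 member are not reported here singly, and it is counted in the totals.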

Additional observations from a re-analysis of the deposited data

How the results depend on the processing

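The count of 0 splicing genes called, of 52, became 1 after median-ratio scaling (10.3% of all genes) and 3 after the length and GC correction (14.6%). At an adjusted p under 0.1 it became 3, against 2435 of all 11780 genes. It ranged from 0 to 4 with a control library left out, and the 4 came without control replicate 1 (29.8% of all genes). The count of 1153 genes called overall became 497 with no filter on low values and 2435 at an adjusted p under 0.1. It ranged from 0 to 3516 with a library left out, and was 3516, 111 and 204 when control replicate 1, 2 or 3 was omitted and 7 and 0 when knockout replicate 1 or 2 was. A knockout group of 1 library is then assumed to vary like the controls. The causes were not tested. Of the calls, 450 were higher and 703 lower as deposited, 597 and 621 after median-ratio scaling, 518 and 564 after quantile normalization, while the length and GC correction gave 861 higher and 776 lower. The median log2 change of the splicing genes stayed above 0 in every alternative run, from 0.04 without control replicate 1 to 0.13 without control replicate 3. No trend, no filter on low values and the threshold of 0.1 cannot move this median, and summed symbols left it unaltered. Deviations of knockout and control libraries from their group means had correlations between -0.04 and 0.04. With 2 knockout libraries their deviations mirror each other, so this cannot settle whether replicate numbers pair the samples. With the replicate block, to which control replicate 3 contributes nothing for want of a partner, 55 genes and 0 splicing genes were called. Of 24 named splicing genes, 6 changed sign under at least 1 of 16 alternatives. The filters, no trend, summed symbols and the threshold of 0.1 left each of these log2 changes unaltered, so no sign could turn there. Without control replicate 1 the log2 change was 0.003 for Prpf19, 0.05 for Snrpb and 0.05 for Hnrnpab. With 2 knockout libraries and no counts, depth and small changes are limited to the intervals given.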
